A study of Mus musculus with 6 samples.

Results

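p53, encoded by Trp53 in the mouse, and 9 genes known as its inhibitors or targets were followed in neuro2a (N2a) cells after knockdown of the transcription factor NF-Y. The 10 genes (Trp53, Mdm2, Mdm4, Cdkn1a, Ccng1, Sesn1, Zmat3, Bbc3, Pmaip1 and Trp53inp1) were chosen by name, and 13 probes carried a transcript accession of one of them. Of these genes 9 passed the filter on low signal, out of 16493 genes tested in all, and Pmaip1 did not. N2a is a mouse neuroblastoma cell line. Its control cells (3 arrays) were transfected with a vector that the titles name only as Vector. The knockdown cells (3 arrays) received vectors expressing miR RNAi against NF-YA and NF-YC. Total RNA was hybridised to single-colour Agilent mouse arrays. Both groups were the same line under the same transfection. The paper's methods list an empty vector and a non-targeting miR vector as controls, and the title was read as the empty one. On that reading the control carried no RNAi hairpin, so loss of NF-Y and the presence of a hairpin transcript cannot be told apart. The bulk RNA likewise cannot tell fewer expressing cells from less RNA per cell, and nothing in the labels says that the replicates came from separate cultures, so the p-values measure the spread between these samples, which may be technical.

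p53 is a transcription factor that is kept low in unstressed cells. Mdm2 is the ubiquitin ligase that marks it for degradation, and Mdm4 is the relative of Mdm2 that masks its activation domain. Damage or other stress releases p53, which then raises genes for cell cycle arrest, such as the kinase inhibitor p21 (Cdkn1a), and for cell death, such as the BH3-only proteins Puma (Bbc3) and Noxa (Pmaip1). Mdm2 is itself a target, which closes a feedback loop. NF-Y is the trimer that binds CCAAT boxes in promoters, and it is known to meet p53 at the promoters of cell cycle genes.

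Promoter windows were inspected for both factors, because the knockdown targets subunits of the factor that reads CCAAT. RefSeq windows from 250 bases before to 50 bases after a transcript start were at hand for 7 of the 10 genes, with 12 windows in all. Zmat3, Pmaip1 and Trp53inp1 were not among them. The letters CCAAT were searched on both strands (ATTGG on the printed strand is CCAAT on the other). The p53 half-site was searched by exact match to its published consensus. A CCAAT match lay in a window of 5 of the 7 genes, namely Trp53, Mdm2, Ccng1, Sesn1 and Bbc3. By window it lay in 6 of 12, and 37.4% of all 32851 windows held one. Cdkn1a and Mdm4 had no match in any of their windows. Ccng1 held 4 matches, a number reached or passed by 0.995% of all windows. Cdkn1a held a pair of p53 half-sites 12 bases apart at its upstream start, which lies 2790 bases upstream of its other start, and 0.0731% of all windows held such a pair at 13 bases or less. Half-sites were found in 5 of the 7 genes, in 5 of the 12 windows and in 8.36% of all windows. Stretches of the Ccng1, Cdkn1a, Trp53 and Mdm2 windows are printed 5′ to 3′, with each CCAAT or ATTGG and each p53 half-site in capitals. The CCAAT stretches of Sesn1 and Bbc3 are not printed, and no link between a match and a change was tested. Ccng1 is shown for its 3 upstream CCAAT boxes, Cdkn1a for its half-sites, and Trp53 and Mdm2 for the single box near each start.
Ccng1, GRCm38.p6 chr11:40755317-40755536, minus strand: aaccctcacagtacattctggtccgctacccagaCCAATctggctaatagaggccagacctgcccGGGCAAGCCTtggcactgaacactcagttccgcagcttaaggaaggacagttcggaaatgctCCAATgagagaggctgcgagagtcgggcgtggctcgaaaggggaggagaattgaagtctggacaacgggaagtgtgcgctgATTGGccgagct
Cdkn1a, GRCm38.p6 chr17:29090859-29090978, plus strand: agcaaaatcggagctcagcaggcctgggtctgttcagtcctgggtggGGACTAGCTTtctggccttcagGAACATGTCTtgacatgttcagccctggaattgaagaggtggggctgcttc
Trp53, GRCm38.p6 chr11:69580329-69580358, plus strand: gagtctcgcgggggttgctgggATTGGgac
Mdm2, GRCm38.p6 chr10:117710813-117710842, minus strand: cccccgcctcctATTGGtccaggaggcggc
In the Ccng1 stretch the boxes begin 216, 123 and 42 bases before the start, and the Cdkn1a half-sites begin 73 and 51 bases before the start. The bases directly after the Cdkn1a half-site nearer the start miss the consensus in their first letter only. The exact search therefore left them uncounted, and the pair given is that of exact matches. The Trp53 box begins 8 bases and the Mdm2 box 72 bases before the start. A match is a description of these letters, not evidence of binding.

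**Figure D1:**
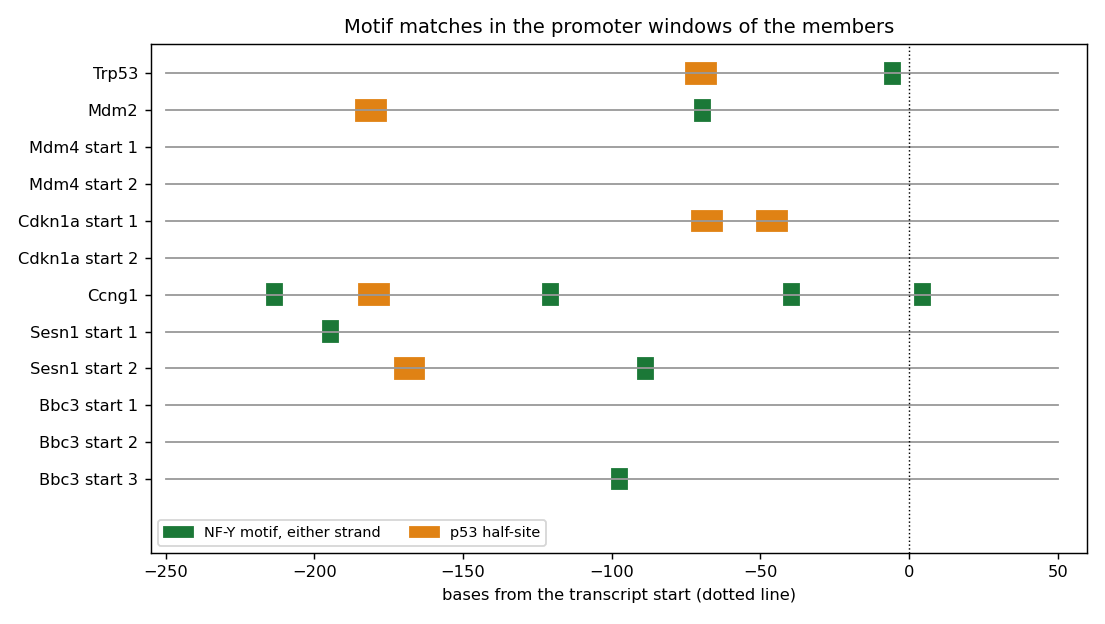
Positions of CCAAT matches on either strand (green) and p53 half-sites (orange) in the 12 promoter windows of 7 genes, drawn to scale in bases from the transcript start, with 1 line for each window. The single Ccng1 window holds 4 CCAAT matches, and both Cdkn1a windows and both Mdm4 windows hold none.

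The 75th percentile of signal lay between 718 and 754 intensity units, 61.9% to 66.2% of spots were well above background, no non-control spot was saturated, and all 6 arrays shared 1 slide. The control arrays and knockdown array 1 lay in slide row 1, and knockdown arrays 2 and 3 in row 2. Within row 1 the log2 difference of knockdown array 1 from the control mean was -1.01 for Cdkn1a, -0.44 for Ccng1, -0.75 for Zmat3, -0.14 for Trp53, 0.03 for Mdm2 and 0.51 for Mdm4. The knockdown was seen in the targeted genes, with Nfya at 0.591 and Nfyc at 0.286 of the control signal. Nfyb, the subunit not targeted, was called higher on each of its probes, at 0.83 on the brightest (limma adjusted p 0.00131). As a check of the line, all 16 tested genes of 17 neuroblastoma and sympathetic neuron markers were well above background on all arrays. Their summed signal was 403 to 413 times the array's 75th percentile in control and 384 to 398 times in knockdown. Of these markers 2 were called lower, Mycn at -0.69 (limma adjusted p 0.00488) and Th at -0.62 (limma adjusted p 0.00155), and 0 higher. The same rule called 5.0% of all tested genes lower and 3.90% higher. At the adjusted p alone 4 markers were lower and 3 higher, beside 15.8% and 15.7% of all tested genes. Their median change was 0.050, with 9 above 0 and 7 below. The sum over 6 fibroblast markers was 0.230 to 0.275 in control and 0.263 to 0.305 in knockdown, with Pdgfra called higher at 1.29 and Col1a1 called lower at -0.77. Over 5 leukocyte markers it was 8.28 to 9.77 and 8.24 to 9.69. Over 5 epithelial markers it was 0.290 to 0.329 in control and 0.343 to 0.358 in knockdown, with Krt8 called higher at 0.67. These sums did not overlap between groups, and neither did the neuroblastoma sums. Of the 5 epithelial genes 2 changed above 0 and 3 below, with a median change of -0.13. The part of these shifts in the results was not tested. Itgam and Csf1r made up nearly all of the leukocyte sum, with a mean log2 signal of 2.64 and 1.41 in control and of 2.74 and 1.17 in knockdown. Other Itgam probes were far dimmer, at -3.06 and -3.51 in control, so what the bright Itgam probe detects is uncertain. Nefl, Epcam, Cdh1, Krt18, Col3a1, Lum and the tested probe of Cx3cr1 were not well above background on any of the 6 arrays.

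Of the 9 tested genes, Cdkn1a was called lower and none was called higher, where a call needed an adjusted p below 0.05 and a change above 1.5-fold. By this rule 5.0% of all tested genes were called lower and 3.90% higher, or 8.90% in either direction. At the adjusted p alone, Cdkn1a and Ccng1 were lower and Mdm4 was higher, against 15.8% of all tested genes lower and 15.7% higher. In 4 genes all knockdown arrays lay below all control arrays (Trp53, Cdkn1a, Ccng1 and Zmat3) and in Mdm4 they lay above, where 27.0% and 27.7% of all tested genes did so. The median change of the 9 genes was -0.078 on the log2 scale, and that of all tested genes was 0.0053. These shares are from few genes, and no more is read from them.

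**Figure D2:**
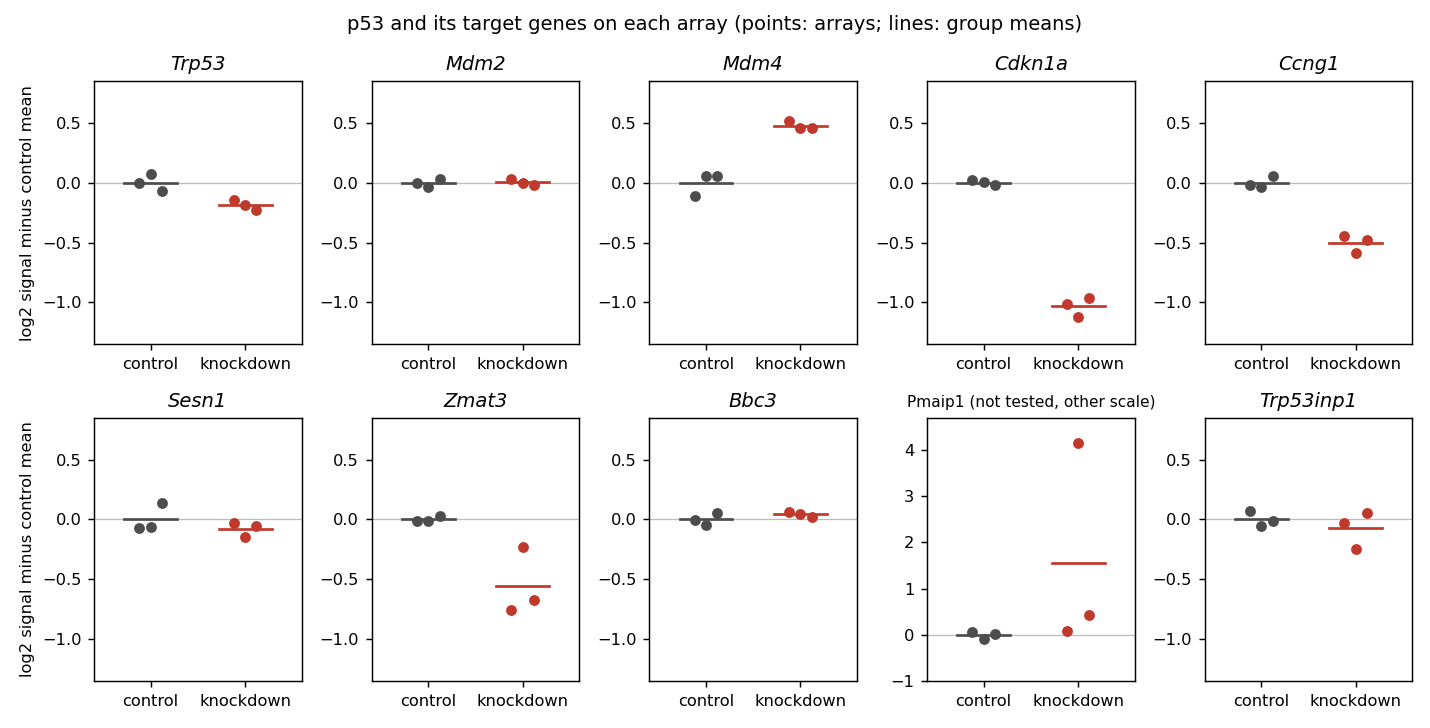
Normalized log2 signal of each gene on each array, minus the mean of its 3 control arrays (dark grey control, red knockdown, lines group means). Cdkn1a, Ccng1 and Mdm4 separate the groups with narrow spread, Mdm2 and Bbc3 overlap, Zmat3 has 1 knockdown array (replicate 2) near the controls, and Pmaip1 is drawn on a wider axis because that same array stands apart.

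Trp53 itself differed little. Its log2 signal, scaled to the 75th percentile of each array, was 0.38, 0.45 and 0.31 on control arrays 1 to 3. On knockdown arrays 1 to 3 it was 0.24, 0.20 and 0.16, so the knockdown arrays lay just under the controls without overlap. The change was -0.18 with an SE of 0.056 (95% interval -0.32 to -0.042, limma adjusted p 0.0741), which did not pass. Over 20 alternative settings the change kept its direction, between -0.30 and -0.14, with adjusted p-values from 0.0222 to 0.357.

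Mdm2, the ubiquitin ligase that both restrains p53 and reports its activity, did not pass. Intensities on the control arrays were 25161, 24014 and 25709 units, and those on the knockdown arrays were 25456, 23877 and 24066 units. The groups overlapped. On the log2 scale the difference was 0.0032, with an SE of 0.043 (95% interval -0.10 to 0.11, limma adjusted p 0.966). That interval was the narrowest of the 9 genes.

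Mdm4, the other inhibitor, was higher in knockdown on both of its probes. The brighter probe had log2 signals of -1.37, -1.20 and -1.21 on the control arrays and of -0.75, -0.81 and -0.80 on the knockdown arrays, all above the controls. Its change of 0.47 with an SE of 0.062 (1.39-fold, limma adjusted p 0.00651) passed the adjusted p and stayed under the minimum fold. The dimmer probe had control intensities of 93.4, 89.2 and 85.2 units and knockdown intensities of 130, 139 and 137 units. It changed by 0.63 with an SE of 0.065 (1.55-fold, limma adjusted p 0.00311) and was called higher. The probes thus agreed in direction and fell on either side of the fold limit. With slide row as a block the brighter probe changed by 0.51. That value rests on knockdown array 1 alone, since row 2 held no control array.

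Among the arrest genes, Cdkn1a fell most. It encodes p21, the inhibitor of cyclin-dependent kinases through which p53 stops the cell cycle. Its probe, printed in 10 spots on each array, read 3536, 3419 and 3432 intensity units on the control arrays and 1713, 1523 and 1737 units on the knockdown arrays. Every knockdown array lay well below every control array, and the gap was wider than the spread within either group. Mean log2 signal stood at 2.21 ± 0.020 over the control arrays and at 1.18 ± 0.084 over the knockdown arrays (SD, n = 3 each). The change was -1.03 with an SE of 0.057 (95% interval -1.18 to -0.89), or 2.05-fold lower, with a limma adjusted p of 0.000669. It stood at the 2.06th percentile of the changes of all tested genes. A further Cdkn1a probe stayed between 2.33 and 9.72 intensity units, never well above background, and gives no measure of the gene.

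Ccng1, which encodes cyclin G1 and is a p53 target that acts with Mdm2, was lower by less. Control arrays read 1330, 1287 and 1403 intensity units and knockdown arrays 983, 854 and 935 units. The groups did not overlap. The change was -0.51 with an SE of 0.059 (1.42-fold lower, limma adjusted p 0.00465), past the adjusted p and under the minimum fold. The 95% interval ran from -0.66 to -0.36. With slide row as a block, which rests on knockdown array 1 alone, the change was -0.44.

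Zmat3, a zinc finger RNA-binding protein induced by p53, was set apart by 1 array. Control arrays read 1314, 1280 and 1343 intensity units, while knockdown arrays 1, 2 and 3 read 777, 1072 and 802 units. Knockdown arrays 1 and 3 were well under the controls and array 2 lay between. The change was -0.55 with an SE of 0.15 (95% interval -0.93 to -0.18, limma adjusted p 0.0524) and did not pass. Without knockdown array 2 it was -0.71 at an adjusted p of 0.00828 and was called. With slide row as a block, which rests on knockdown array 1 alone, it was -0.75. Over the 20 alternatives its adjusted p ran from 0.000664 to 0.146.

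Sesn1, a stress-induced inhibitor of mTORC1 signalling, did not pass. Its log2 signal was 1.61, 1.62 and 1.82 on control arrays and 1.65, 1.53 and 1.62 on knockdown arrays, with overlap. The change was -0.078 with an SE of 0.077 (limma adjusted p 0.523), and the interval ran from -0.27 to 0.12.

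The death genes gave no call. Bbc3 read 1447, 1372 and 1500 intensity units on control arrays and 1503, 1422 and 1426 units on knockdown arrays. The groups overlapped, and the change was 0.043 with an SE of 0.046 (95% interval -0.073 to 0.16, limma adjusted p 0.555). Trp53inp1, a stress protein that promotes p53-dependent death and autophagy, was read by a pair of probes. The brighter one read 75.6, 68.0 and 71.3 units in control and 70.0, 57.8 and 72.3 units in knockdown, a change of -0.075 with an SE of 0.092 (limma adjusted p 0.610). The dimmer one changed by -0.17 with an SE of 0.13 (limma adjusted p 0.422). Both probes overlapped between groups and were lowest on knockdown array 2.

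Pmaip1 was near the floor. Its probe read 2.48, 2.18 and 2.41 intensity units on control arrays and 2.49, 40.5 and 3.12 units on knockdown arrays 1, 2 and 3. It was well above background on knockdown array 2 only, the array on which Zmat3 also departed from its group, so no level can be set for either group. It failed the filter, and when no filter was applied its limma adjusted p was 0.404.

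**Figure D3:**
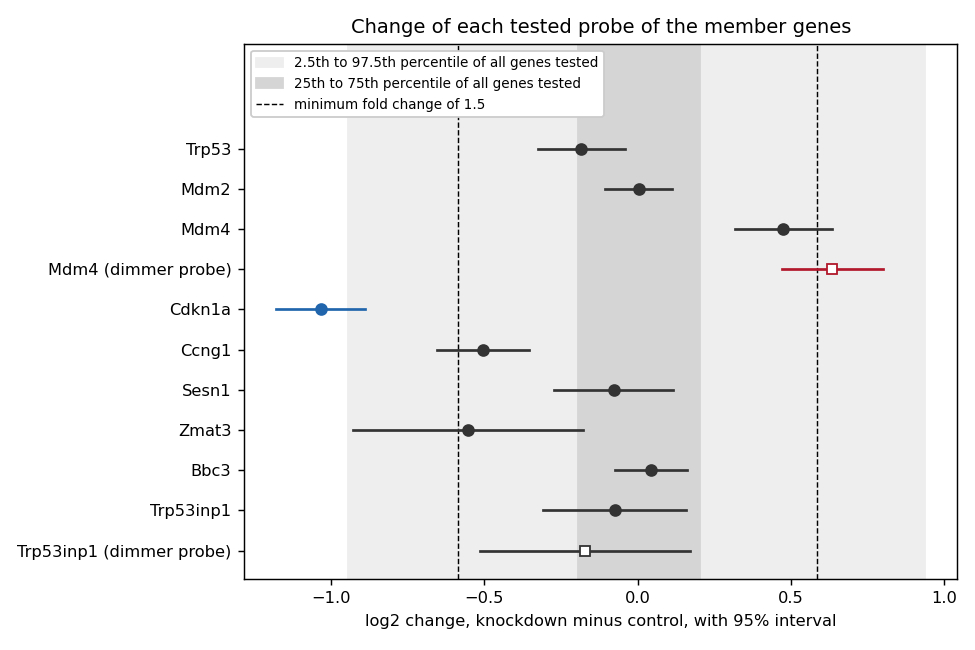
Log2 change of the tested probes of the 9 genes (knockdown minus control) with 95% intervals, leaving out the Cdkn1a probe that was not above background. Filled circles are the probe that stands for the gene, open squares are dimmer probes, blue was called lower and red called higher. Grey bands hold the middle 95% and, darker, the range between the 25th and 75th percentiles of all tested genes. The Cdkn1a interval (-1.18 to -0.89) is the only one wholly beyond the minimum fold of 1.5, and those of Mdm2, Sesn1, Bbc3 and Trp53inp1 cross 0.

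The rest of the pathway was read through 6 lists of 86 genes, of which 82 were tested. In all 3 were called lower and 3 called higher, beside 5.0% and 3.90% of all tested genes. At the adjusted p alone 18 (22.0%) were lower and 18 (22.0%) higher, beside 15.8% and 15.7% of all tested genes, with a median change of 0.046.

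Of the 18 regulators of p53, 7 were higher and 1 lower at the adjusted p, where 15.7% of all tested genes were higher and 15.8% lower, and the median change was 0.19. Hipk2, a kinase that phosphorylates p53, was the 1 regulator called. Its log2 signal was 0.82, 0.97 and 0.94 on control arrays and 2.37, 2.27 and 2.24 on knockdown arrays. The change was 1.38 with an SE of 0.065 (2.61-fold higher, limma adjusted p 0.000494). A dimmer Hipk2 probe changed by 0.44 with an SE of 0.086 (limma adjusted p 0.0208), so the probes differed in size and not in direction.

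In the p53 family and its partners no gene of 8 was called, and 2 were lower and 2 higher at the adjusted p. Of all tested genes 15.8% were lower and 15.7% higher. Trp63, the p53 relative of epithelia, was 1.38-fold higher (change 0.47 with an SE of 0.040, limma adjusted p 0.00189) on a bright probe. Another Trp63 probe lay at the floor on all arrays and was not tested, so what the bright probe detects is uncertain. Trp73, the relative linked to neural development, changed by -0.30 with an SE of 0.039 (limma adjusted p 0.00612) on its brightest probe. A dim Trp73 probe changed by -0.67 with an SE of 0.48 (limma adjusted p 0.382). Another was near the floor except on knockdown array 2 and was not tested.

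Further targets of p53 were grouped by role. Of 13 cell cycle and growth targets 3 were lower and 2 higher at the adjusted p, beside 15.8% and 15.7% of all tested genes. The median change was -0.0056. Only Rprm (Reprimo, a mediator of G2 arrest) was called, as higher. Its log2 signal was -6.54, -5.59 and -6.11 in control and -4.81, -5.26 and -4.48 in knockdown. Only 1 of 3 control arrays had it well above background, against all 3 knockdown arrays. The change was 1.23 with an SE of 0.31 (limma adjusted p 0.0456), and the call was lost in 13 of 20 alternatives, among them 5 of the 6 in which an array was left out, at 1.0 to 1.44. After normexp background correction the change was 0.24 with the 75th percentile and 0.19 with quantile normalization, also without a call.

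Of 13 cell death targets 6 were lower and 3 higher at the adjusted p, beside 15.8% and 15.7% of all tested genes, with a median change of -0.20. No difference from the other lists was tested. Tnfrsf10b, a TRAIL death receptor, was called higher at 0.90 with an SE of 0.073 (1.87-fold, limma adjusted p 0.00168). Its knockdown arrays at -2.08, -2.10 and -1.96 all lay above the controls at -3.05, -2.85 and -2.93. With normexp and quantile normalization the change was 0.58 and the call was lost. Trp53i11, named for its induction by p53, was called lower at -0.80 with an SE of 0.10 (limma adjusted p 0.00592). Its intensities were 523, 509 and 525 units in control and 343, 255 and 286 units in knockdown. Calls in opposite directions thus stood in 1 group of targets. A second probe of Cdip1, a proapoptotic target, was 2.10-fold lower (change -1.07 with an SE of 0.10, limma adjusted p 0.00270), while its brighter probe changed by -0.43 (limma adjusted p 0.00634), short of the minimum fold. Cdip1 was picked for this gap after its values were seen.

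Among the DNA repair and metabolism targets 3 of 16 were lower and 1 higher at the adjusted p. Of all tested genes 15.8% were lower and 15.7% higher. The median change of the list was -0.076. Tigar, a phosphatase that slows glycolysis, was called lower. Its log2 signal was 2.18, 2.17 and 2.23 in control and 1.26, 1.19 and 1.37 in knockdown, a change of -0.92 with an SE of 0.061 (1.89-fold lower, limma adjusted p 0.00108). Its dimmer probe changed by -0.96.

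Genes of G2 and M phase are lowered when p53 raises p21, through the DREAM repressor complex, so they were read beside Cdkn1a. NF-Y is itself known at promoters of cell cycle genes. Its part in their changes was not tested apart from that of p53 and p21. Of 14 tested 3 were lower and 3 higher at the adjusted p, beside 15.8% and 15.7% of all tested genes. The median change was 0.057. Cdc25c, the phosphatase that opens mitotic entry, was the 1 gene called. Its control arrays at 0.62, 0.55 and 0.59 stood over knockdown arrays at -0.50, -0.53 and -0.48. The change was -1.09 with an SE of 0.043 (2.13-fold lower, limma adjusted p 0.000375). The 13 others lay between -0.55 and 0.42.

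**Figure D4:**
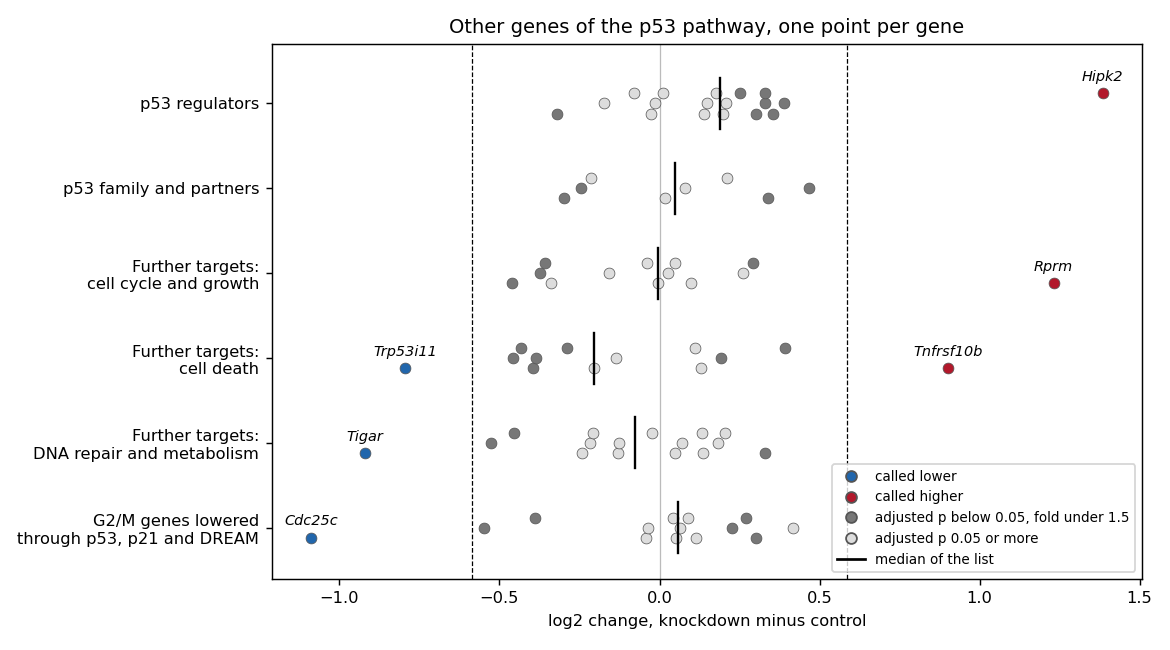
Log2 change (knockdown minus control) of 82 further p53 pathway genes in 6 lists, 1 point for each gene, with the list median as a black bar and the minimum fold of 1.5 as dashed lines. Hipk2, Rprm and Tnfrsf10b lie to the right of the limit and Trp53i11, Tigar and Cdc25c to the left, and most genes lie between.

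The changes of the 9 genes were recomputed under 20 alternative settings. Cdkn1a was lower in each and was called in 19, with the change between -1.15 and -0.94 in those. It was lost when all probes of a gene were averaged, at -0.25 and an adjusted p of 0.557, because that mean took in the probe that was not above background. Ccng1 was lower in all 20 (-0.62 to -0.44) and Mdm4 higher in all 20 (0.30 to 0.55). Mdm4 did not pass the adjusted p in all of them. With scaling on the array median its change was 0.36 (limma adjusted p 0.0598). With slide row as a block no p-value is read for Ccng1 or Mdm4, since each change rests on knockdown array 1 alone.

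**Figure D5:**
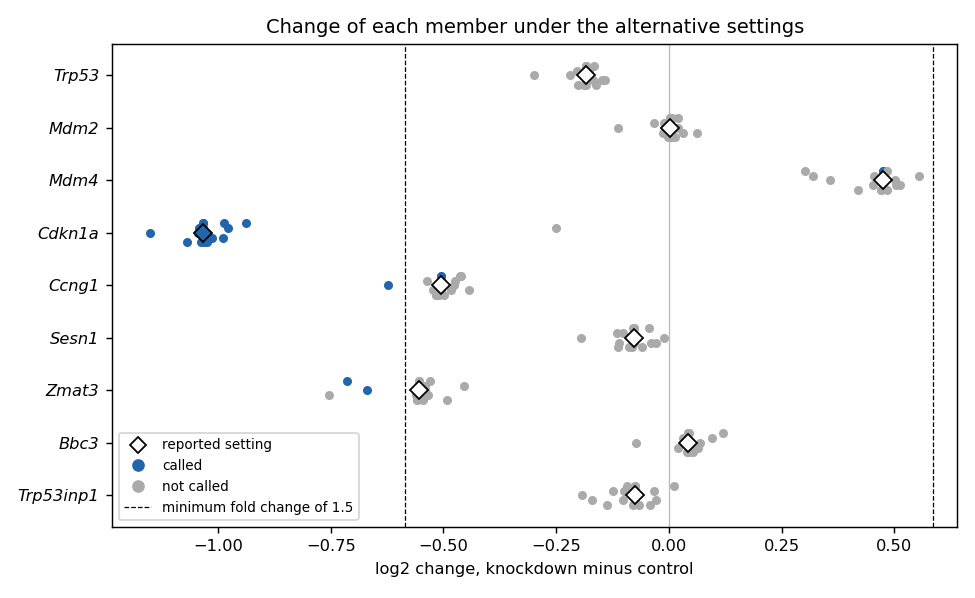
Log2 change of each tested gene (knockdown minus control) in the reported setting (diamond, filled where called) and in 20 alternatives (points, blue where called). Cdkn1a keeps its place in all but 1, Ccng1 and Mdm4 keep their direction short of the minimum fold in most, and Mdm2 stays around 0.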

How the data were processed

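The authors hybridised Cy3-labelled RNA of 6 samples to Agilent SurePrint G3 mouse arrays and read them with the Feature Extraction software of Agilent, version 10.10.1.1. The deposited tables hold processed spot signals as intensity values, background-subtracted and not scaled between arrays. The deposited series matrix holds log2 values of the authors with no stated scale. Over 43557 single-spot probes its differences between arrays stayed within 0.0076 of those computed here, so its scaling was read as the same and its centring, which stays unstated, as a constant for each probe. The medians of its columns lay between -0.012 and 0.018.

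Groups came from the sample titles. Control spots and outlier spots were left out, each array's 75th percentile was subtracted from log2 signal, and repeated spots were averaged per probe. The arrays held 55681 probes. A value was missing on some array for 245, and 42130 reached the 20th percentile on all arrays of a group. Accessions were matched to RefSeq (GRCm38.p6) without versions, and 25869 of 26392 curated mRNA probes matched. The array design is annotated on mm9, so gene positions on it are left out. Each gene is represented by the probe of highest mean signal, for 16493 genes. The two-sided comparison of knockdown with control used limma (version 3.58.1, under R 4.3.3) without covariates, and p-values were adjusted by Benjamini and Hochberg over the 42130 probes. Scripts were tested on simulated data.

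The members, lists, tests and alternatives were chosen with earlier results of these data known. Named are all members, the NF-Y subunits, the called genes of each list (at most 5, or the 2 of smallest adjusted p where none was called) and a few markers. One further marker list is not reported here. Normexp used the median spot signal with an offset of 50. The number of arrays limits the precision.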

Additional observations from a re-analysis of the deposited data

How the results depend on the processing

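The 20 alternatives changed scaling, background correction, filter, variance model, block, probe rule or minimum fold, took the series matrix values, or left out 1 array. With slide row as a block each change rests on knockdown array 1 alone, since row 2 held no control array. Cdkn1a was called lower in 19 of 20, Nfya and Nfyc in all 20, and Trp53, Mdm2, Sesn1, Bbc3 and Trp53inp1 in none. Scaling on the array median moved the median change of all genes to -0.11. Of 16493 genes 1175 were then called lower and 382 higher, so 75.5% of calls were lower against 56.1%. There 3 members were called lower, with Ccng1 at -0.62 and Zmat3 at -0.67 (-0.51 and -0.56 relative to that median), 5 genes of the pathway lists were called lower, and Mdm2 at -0.11 and Bbc3 at -0.073 changed sign (-0.0021 and 0.038 relative to it). Normexp with the 75th percentile gave 584 genes lower and 275 higher (68.0% lower) and Mdm2 at -0.033, and normexp with quantile normalization gave 557 and 282 (66.4%), with 1 pathway gene called higher. In that setting Tnfrsf10b was not called, at 0.58. Mdm2 was -0.00089 in the series matrix. Averaging all probes of a gene left 0 members called lower (Cdkn1a at -0.25), beside 837 of all 16493 genes. Without a minimum fold, 2 members were lower (Cdkn1a and Ccng1 at -0.51) and 1 higher (Mdm4 at 0.47), with 18 pathway genes in each direction and 2602 genes lower and 2597 higher in all. Pmaip1 had a value only with no filter, at 1.56.

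Leaving out each array in turn gave 1 to 2 members called lower, beside 752 to 830 of all genes tested. Zmat3 lay between -0.71 and -0.45, and it was called at -0.71 without knockdown replicate 2. Mdm2 lay between -0.014 and 0.020 and Trp53inp1 between -0.14 and 0.011, with the positive value without knockdown replicate 2. Deviations from the group mean correlated between same-numbered arrays at 0.018, 0.067 and 0.0025 over probes. Between arrays of different number they ran from -0.081 to 0.063. Control arrays 1 and 2 correlated best with the same number, and control array 3 with knockdown array 1. These numbers are those of the sample titles. The deposited array names carry other numbers, and no label says that a number marks a shared culture. All values were near 0 and do not settle a pairing, so the main fit took the arrays as unpaired. With the replicate block 765 genes were called lower and 518 higher, Cdkn1a at -1.03 (adjusted p 0.0227) stayed called, Rprm at 1.23 was not, and no other call changed among the tested members, Nfya, Nfyc and the genes called in the pathway lists, each read from its brightest probe. The upstream bases alone left 5 genes with a CCAAT match, as in the whole window. Low signal limits Pmaip1, Rprm and the second Cdkn1a probe.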
